A study of Cucumis sativus with 6 samples.

Results

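The 100 genes whose share of the counted reads varied least between 6 libraries of cucumber (Cucumis sativus) fruit were described. The fruits were sampled on the day the flower opened (anthesis). The libraries came from the near-isogenic lines 32X and GFC, with 3 replicates of each line. Both lines are northern China type cucumbers with short, light green fruits, grown in a greenhouse. Near-isogenic lines are bred by repeated crossing to share most of their genome. The labels enter 1 genotype, inbred line 1461, for every sample, and only the titles tell the lines apart. The study is about carpel number, that is, how many fused carpels make up a fruit. The labels call the replicates biological but do not say whether they came from separate plants, so any spread given here may be partly technical.

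The members were chosen on the deposited RPM values (reads per 1000000 counted reads), which sum to 1000000 in each library. Of 17073 listed genes, 2309 had a mean of 100 to under 800 RPM over the 6 libraries, and these are called the window. The coefficient of variation (CV), the sample SD divided by the mean of the 6 RPM values, was computed for each of them. The 100 genes with the smallest CV, 4.33% of the window, were kept. The CV therefore chose the members, and it is given for them as a description. The comparison of the lines uses the same 6 values, so it is no separate evidence that these genes are steady. All 100 members passed the filter on low values, at least 1 RPM in at least 3 libraries.

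A reference gene is a transcript measured beside the gene of interest, for example in quantitative PCR, to correct for unequal amounts of RNA between samples. It serves that purpose when its own share of the RNA changes little between the samples compared. In plants, genes for actin, tubulin, ubiquitin and translation elongation factors are often used, because every cell needs their products. The deposited table gives IDs without names, and 0 of its IDs occurred in the RefSeq gene table used, so whether any member belongs to those families was not analysed here and members are named by ID. A steady RPM means a steady share of the counted reads. In whole fruit, fewer cells of a type and less RNA per cell cannot be told apart.

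The recovered depth ran from 15320600 to 18089654 reads per library. In the window the median CV over 3 libraries was 8.56% in 32X and 4.78% in GFC. Without 32X replicate 2 the value in 32X was 4.94%, over 2 libraries. Over 2 libraries the GFC value was 4.21%, 2.77% and 5.61% without GFC replicates 1, 2 and 3. The 4.94% is therefore not comparable with the value of GFC over 3 libraries. The libraries also differed in how far the genes of the window lay from their own means. The median absolute distance was 3.41% in 32X replicate 1, which lay nearest the middle of the 6, and 12.9% in 32X replicate 2, which lay farthest. Results that rest on single libraries are therefore given with each library left out as well.

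The members' CV ran from 1.62% to 3.70%, with a median of 3.12%, where the median of the whole window was 10.3% and its 10th percentile 4.78%. The highest of the 6 values of a member exceeded its lowest by a factor of 1.03 to 1.12, against a median factor of 1.32 in the window. Together the members took 1.77% to 1.82% of the reads of each library.

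Csa2G356630, on chromosome 2 by the code in its ID, had the smallest CV. Its values were 126, 130.0 and 126 RPM in 32X replicates 1 to 3 and 129.8, 130.1 and 130.3 RPM in GFC replicates 1 to 3. The GFC libraries averaged 130.1 ± 0.244 RPM (SD, n = 3), and 32X replicate 2 lay among them.

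Csa7G452940, on chromosome 7, was second with 124, 122 and 119.9 RPM in 32X and 121, 118 and 122 RPM in GFC. Its highest value was in 32X replicate 1 and its lowest in GFC replicate 2, and the lines overlapped. Csa1G560700, on chromosome 1, had 182, 174 and 179.5 RPM in 32X and 181, 183 and 183 RPM in GFC. Only 32X replicates 2 and 3 lay below every GFC library, and 32X replicate 1 lay above the lowest of them.

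Csa1G175730, also on chromosome 1, had 146, 150.1 and 143 RPM in 32X and 148, 144 and 146 RPM in GFC. Its line means, 146.1 ± 3.78 and 146.2 ± 2.04 RPM (SD, n = 3), were nearly equal. Csa3G358610, on chromosome 3, had the highest mean of these 5 genes. Its values were 290.7, 292 and 290.7 RPM in 32X and 303, 294 and 286 RPM in GFC, so all 32X libraries lay inside the GFC range.

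**Figure D1:**
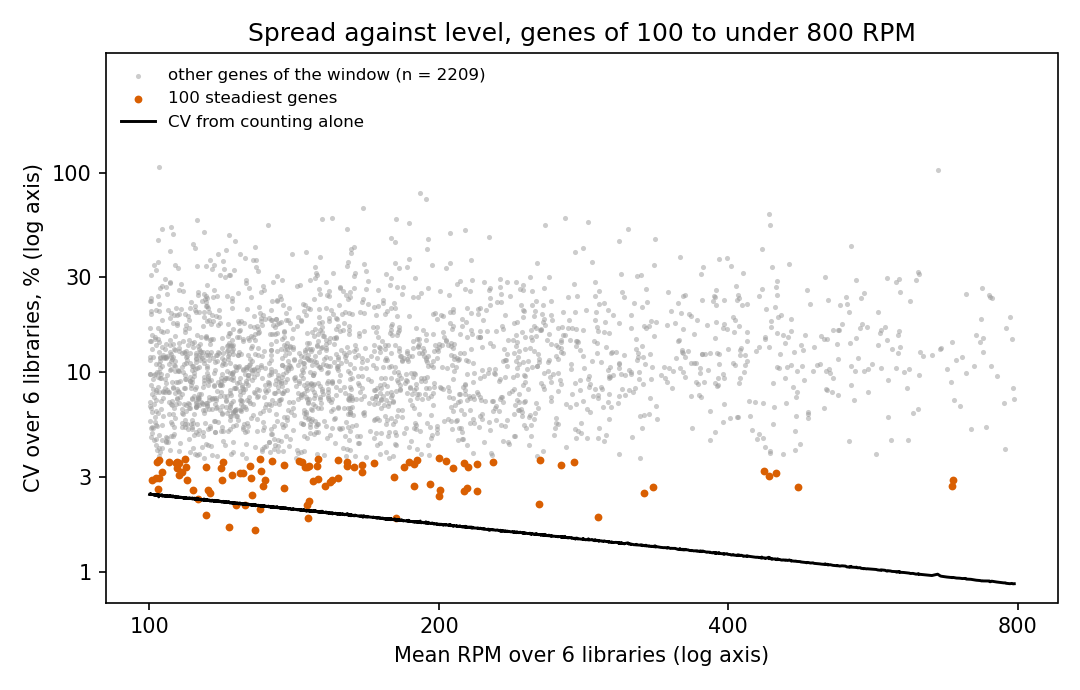
CV over the 6 libraries against mean RPM, both on log axes, for the genes of 100 to under 800 RPM; the black line is the CV that counting alone gives at each level. The members end at 3.70%, and only those at the lower levels reach the line.

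The upper limit of the choice did not fall at a gap. Ranks 99 and 100 were Csa3G150110 and Csa3G000140, with CVs of 3.696% and 3.700%. The next genes, just outside, were Csa3G889120 and Csa7G389450, with 3.706% and 3.711%. Csa3G000140 ran from 189 to 211 RPM and Csa3G889120 from 167 to 186 RPM, each a range of 1.11 times. Members and non-members near the limit were thus alike in spread.

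Levels of the members ran from 100.7 to 684 RPM, with a median of 146 RPM, against 159.5 RPM for the window. In reads, a member had between 1487 and 12612 in a library. Csa2G099470 had the lowest mean, with 97.7, 97.1 and 101.1 RPM in 32X and 100.7, 104 and 103 RPM in GFC. Lower levels held more members: 75 had 100 to under 200 RPM, 19 had 200 to under 400 RPM and 6 had 400 to under 800 RPM. These numbers were 4.93%, 3.32% and 2.76% of the window's genes in the 3 bands. The median CV of all genes of a band rose with level, from 9.58% through 11.1% to 12.6%, although counting noise is smaller at higher levels.

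A reference is usually picked near the level of the gene it is set beside, so the steadiest members of the upper bands are given too. In the middle band Csa3G358610 was followed by Csa1G145930 and Csa6G405880. Csa1G145930 had 251, 257 and 259.5 RPM in 32X and 258, 254 and 245 RPM in GFC, a CV of 2.19%. Csa6G405880 had 204, 198 and 203 RPM in 32X and 204, 199.6 and 192 RPM in GFC, a CV of 2.41%. For both, GFC replicate 3 was the lowest library and the lines overlapped.

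In the top band the steadiest were Csa3G110620, Csa7G048090 and Csa2G059750. Csa3G110620 had 462, 465 and 468 RPM in 32X and 463, 487 and 490.4 RPM in GFC, a CV of 2.67%. GFC replicates 2 and 3 lay above the rest, and GFC replicate 1 lay among the 32X libraries. Csa7G048090 had 669, 668 and 704 RPM in 32X and 709, 681 and 671 RPM in GFC, a CV of 2.69%. Csa2G059750, the most abundant member, had 671, 659 and 699.9 RPM in 32X and 683, 714 and 681 RPM in GFC, a CV of 2.90%. The lines overlapped for both.

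**Figure D2:**
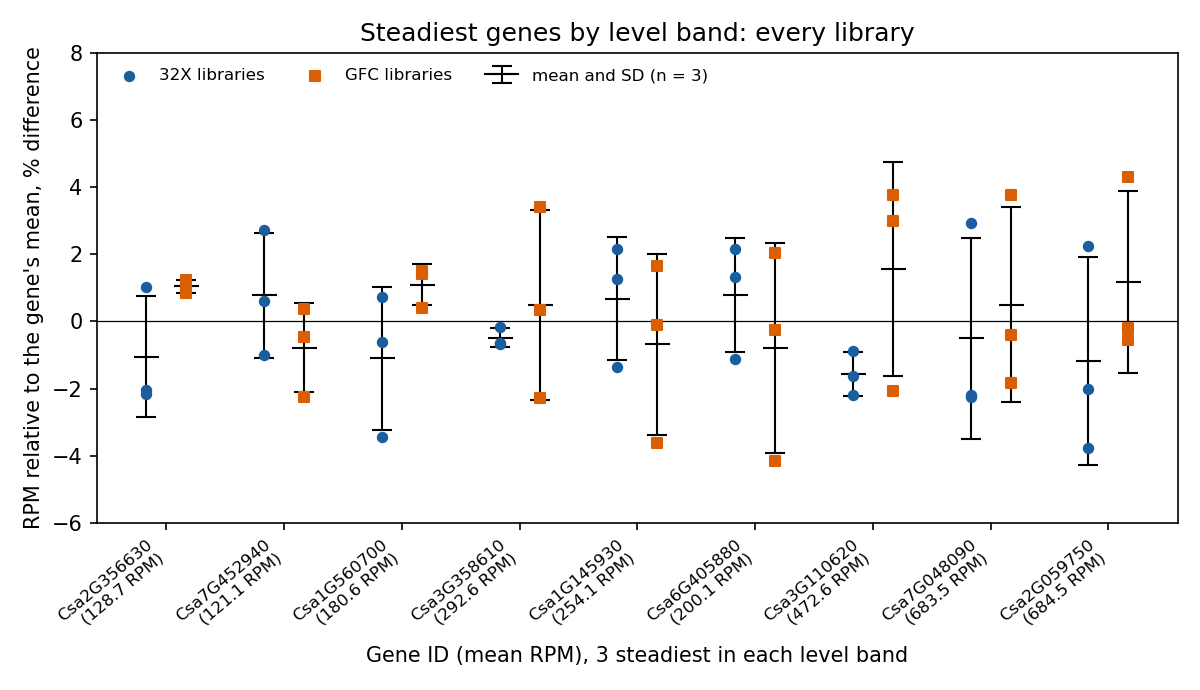
RPM of each library as a percent difference from the gene's own mean, for the 3 steadiest members in each of 3 level bands; circles are 32X, squares GFC, and bars show the mean and SD of 3 libraries. Every value lies within 5% of the gene's mean.

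The spread of the members was set against the spread that counting reads would give by itself. At a member's level counting alone gave a CV of 0.935% to 2.44%, with a median of 2.02%. The observed CV was a median of 1.503 times that value, against 5.51 times in the window. Expressed as variance, the counting value was a median of 44.3% of a member's observed variance and 3.29% of that of a window gene. This ratio is no true share, since for Csa2G356630 the counting CV of 2.16% exceeded the observed CV of 1.62%. A chi-square of the reads per degree of freedom, which averages 1 under counting noise, had a median of 2.26 over the members and 30.1 over the window. It was under 1 for 9 members and under 2.21, the 95% point of counting noise, for 48. No gene of the window outside the 100 was under either value. These figures describe what the choice of small CVs selected, and counting error is all they cover, because copies made by PCR are not separate molecules.

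At the ends of this measure, Csa2G356630 had a chi-square per degree of freedom of 0.57, a spread smaller than counting alone gives on average. Csa2G059750 had 9.56, the highest of the members, with 10092 to 12612 reads per library. Its CV was 2.90% where counting gave 0.935%. Depth limits how small a CV can be resolved for the low members, and it is not the limit for the abundant ones.

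The members' ratios to each other, which do not depend on library totals, come from the same 6 values, so a small spread of them was set by the choice as well. For each member the SD over the 6 libraries of its log2 ratio to every other member was averaged, the stability value M of the geNorm method. It ran from 0.046 to 0.074, with a median of 0.058. Csa2G356630 had the smallest, 0.046, followed by Csa6G154510 at 0.0465 and Csa3G358610 at 0.0470. Csa6G154510 had 131, 131 and 127 RPM in 32X and 135, 128 and 130.2 RPM in GFC. The same value computed for every window gene against the whole window had a median of 0.23, and for the members it ran from 0.18 to 0.20. Of the 100 genes with the smallest such value in the window, 52 were members.

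The comparison of the lines was fitted on all 17073 genes with limma on log2(RPM + 1). At an adjusted p under 0.05, 3517 genes (20.6%) differed, and 582 (25.2%) of the window. Of the members 0 differed in limma, and 0 had an unadjusted p under 0.05. edgeR and DESeq2 on the recovered reads gave 0 as well. Since the choice used the same values, this count was set by it and nothing is read from it. Of the 582 differing genes of the window, 580 lay among the 1309 with the largest CV. A difference between the lines itself raises the CV over both, so nothing is read from this either.

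The sizes of the line differences are a description too, since a small CV over both lines keeps them small. On the log2(RPM + 1) scale the level in GFC less that in 32X ran from -0.084 to 0.085 over the members. The bound of its 95% interval farthest from 0 was a median of 0.19 and at most 0.24, a fold of 1.18. The interval takes no account of the choice, so it does not limit the difference in other fruit. Standard errors were 0.067 to 0.088, because limma draws the spread of each gene toward that of genes of similar level. The members farthest apart between the lines were picked out after their values were seen. Csa2G013240 had 97.0, 101.8 and 99.3 RPM in 32X and 105, 107 and 104 RPM in GFC. Its lines did not overlap, and the log2 difference was 0.085 ± 0.067 (SE, limma adjusted p = 0.378). Csa1G062310 had 277, 272 and 279 RPM in 32X and 264, 261 and 256 RPM in GFC. Its lines did not overlap either, with a log2 difference of -0.084 ± 0.071 (SE, limma adjusted p = 0.411).

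In all, 14 of the 100 members had lines that did not overlap, 10 of them higher in GFC, against 52.6% of the window and 43.4% of all genes. The mean was higher in GFC for 68 members, against 61.8% of the window and 50.3% of all genes. That majority depended on the scaling: it was 68 with TMM factors, 73 with median-of-ratios factors and 42 after quantile normalization. The size behind it was small, with a median log2 difference of 0.015 on RPM and -0.0079 after quantile normalization.

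By library, GFC replicate 1 held the highest value of 32 members, more than any other library, and 32X replicate 2 the lowest value of 24. In the window of 2309 genes GFC replicate 1 held the highest value of 510. There 32X replicate 2 held the lowest value of 911 genes and the highest of 645. The median absolute distance from a member's mean was 1.84% to 2.21% in all 6 libraries. The first principal component of the log2 values held 29.0% of the variance of the members and 77.0% of that of the window. The choice of small CVs over these same values favoured both the small distances and the smaller first component.

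**Figure D3:**
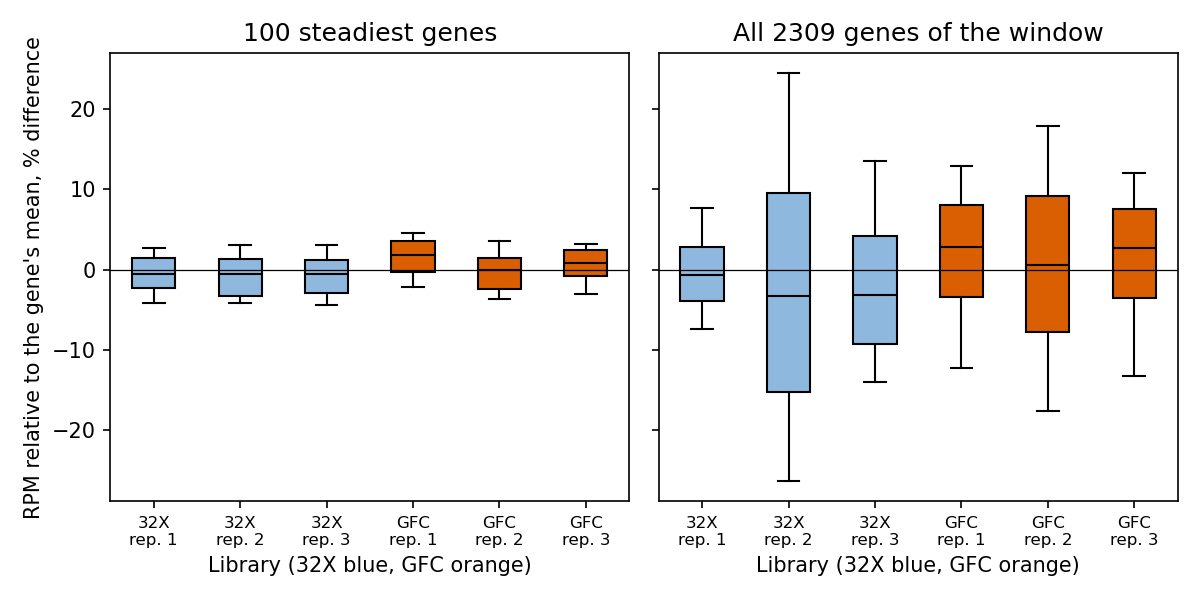
RPM as a percent difference from the gene's mean in each library, for the members and for all 2309 window genes; boxes span the quartiles, the line is the median and whiskers reach the 10th and 90th percentiles. Members lie close to 0 in every library, and the window is widest in 32X replicate 2.

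Whether genes chosen as steady stay steady was measured in libraries that took no part in the choice. For each library, the 100 steadiest genes of the window were chosen again on the other 5, and the absolute log2 ratio of the left-out value to the mean of those 5 was taken. In 32X replicates 1, 2 and 3 the median over the chosen genes was 0.049, 0.11 and 0.094, against 0.059, 0.23 and 0.13 over all window genes. In GFC replicates 1, 2 and 3 it was 0.065, 0.085 and 0.042, against 0.11, 0.15 and 0.11. The chosen genes deviated less in 6 of 6 libraries, by a factor of 1.19 in 32X replicate 1 to 2.63 in GFC replicate 3. Over the 6 libraries the mean of these medians was 0.074 ± 0.027 for the chosen genes and 0.13 ± 0.056 for the window (SD, n = 6 libraries). These 6 values share libraries, so no p is given. The 5 choosing libraries always held both lines, so the choice already disfavoured genes with a large difference between the lines. How much of the gap comes from that was not tested.

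Single genes could still move in the left-out library. In 32X replicate 2 the 90th percentile of the deviation was 0.26 on the log2 scale, and the farthest by 1.32-fold. In GFC replicate 3 the farthest deviated by 1.10-fold. Of the genes chosen without 32X replicate 2, 51 were among the 100 members, the fewest for any library left out. It was 58 without 32X replicate 3, 58 without GFC replicate 2, 74 without GFC replicate 1, 79 without 32X replicate 1 and 87 without GFC replicate 3. Of the members, 36 were chosen again whichever library was left out, the first 5 by CV among them.

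**Figure D4:**
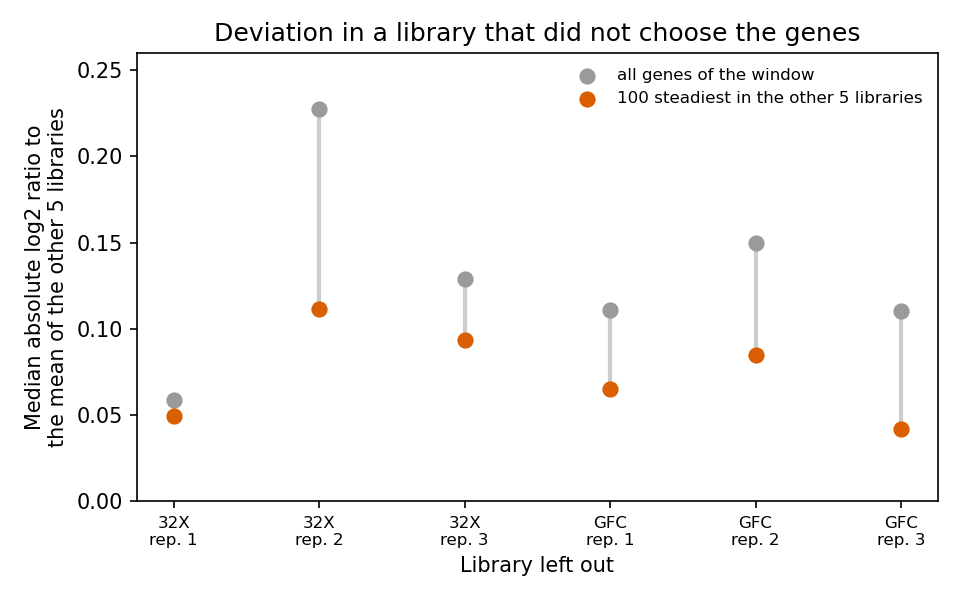
Median absolute log2 ratio of a left-out library to the mean of the other 5, for the 100 genes chosen on those 5 (orange) and for all window genes (grey). The orange point lies lower in all 6 libraries, with the smallest gap in 32X replicate 1.

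A panel of reference genes is usually averaged. The geometric mean of the chosen genes in the left-out library was compared with their geometric mean in the other 5, where a value of 0 on the log2 scale means that the panel gives the same scale as the total of counted reads. The steadiest gene alone missed by a median of 0.068 and at most 0.19, in 32X replicate 2. Panels of 3 missed by a median of 0.053 and at most 0.094, panels of 5 by 0.041 and at most 0.098, and panels of 10 by 0.017 and at most 0.052. Panels of 5 gave too low a scale in all 6 libraries. With 100 genes the median was 0.025 and the largest value 0.051, no smaller at the median than with 10. The scales that TMM gives these libraries run from -0.028 to 0.017 relative to RPM (log2), and those of the median-of-ratios method from -0.035 to 0.016.

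The lines were then used as separate tests of each other. The 100 window genes with the smallest CV over the 3 libraries of 32X had a median CV of 1.41% there and 3.996% in GFC, where the window had 4.78%. Of these genes, 63 lay below the window's median in GFC. The 100 chosen in GFC had a median CV of 0.684% there and 7.57% in 32X, where the window had 8.56%, and 64 lay below its median. With TMM scaling the genes chosen in GFC had 6.12% in 32X against 8.59% in the window, and with median-of-ratios scaling 6.18% against 8.62%. In the other direction the values were 4.22% against 4.76% and 4.28% against 4.78%. Without GFC replicate 2 the values in GFC were 2.73% for the chosen genes and 2.77% for the window, so the gain was nearly gone. Without 32X replicate 2 the values in 32X were 4.33% and 4.94%, and without 32X replicate 3 they were 8.34% and 8.73%, with 53 genes below the window's median.

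The lists chosen in each line shared 4 genes, 4% of each list, where 100 genes are 4.33% of the window. Over all window genes the CVs in the lines had a Spearman rho of 0.25, across genes that share libraries and depth. Of the 100 members, 26 were among the 100 steadiest in 32X and 9 among the 100 steadiest in GFC. A choice by the mean of both within-line CVs, which leaves out the difference between the lines, shared 44 genes with the members.

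Genes steady among the 32X libraries also lay close in level between the lines. Their median absolute log2 ratio of line means was 0.095, against 0.19 in the window, and it was under 0.1 for 53 of them, against 29.0% of the window. The genes steadiest in GFC did not show this on log2(RPM + 1): their median was 0.176 against 0.185 in the window, with 28 of 100 under 0.1 against 28.8%. The 32X libraries enter both the choice and this ratio, so the measures are not independent. Without 32X replicate 1 the median was 0.16 against 0.22, with 27 genes under 0.1 against 24.0% of the window. Without 32X replicate 2 it was 0.12 against 0.15, with 44 genes under 0.1 against 34.1%. Both gaps were smaller than with all libraries. With any other library left out the median was 0.083 to 0.10, against 0.18 to 0.19 in the window.

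**Figure D5:**
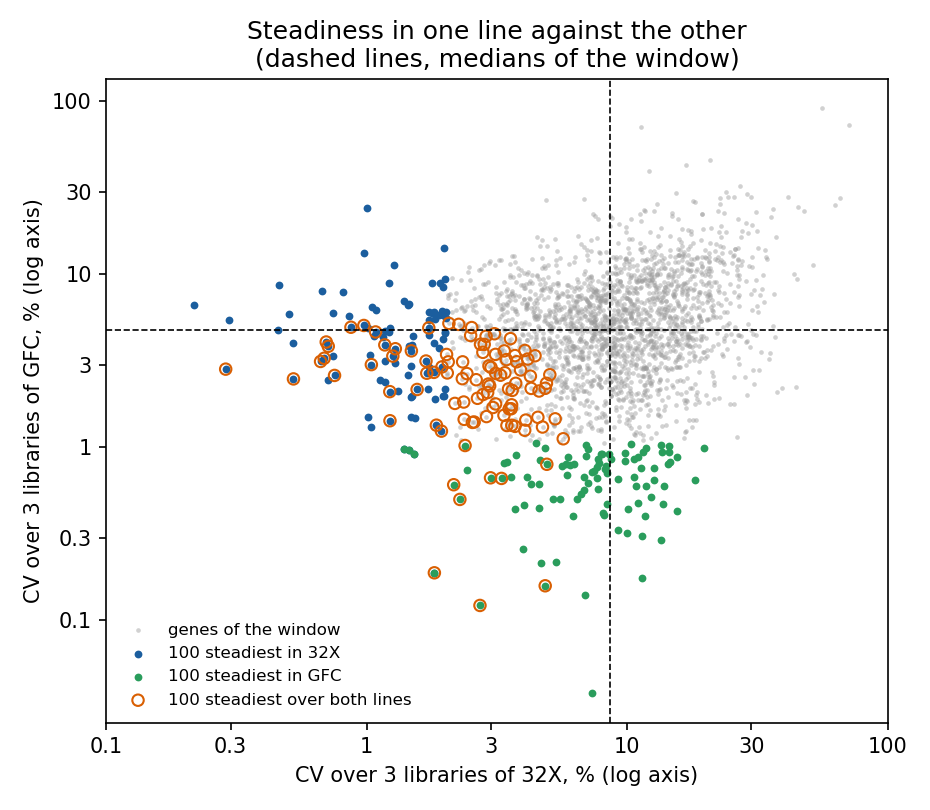
CV over the 3 libraries of 32X against CV over the 3 libraries of GFC, both in percent on log axes, for the genes of the window; dashed lines are the window's medians, 8.56% and 4.78%. The genes steadiest in a line spread widely in the other, and the members lie below both medians, except for 6 that lie above that of GFC.

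By the code in their IDs the members lay on all 7 chromosomes, in numbers close to the window's. Chromosome 3 held 23 of the members and 19.8% of the window, chromosome 6 held 16 and 17.4%, and chromosome 2 held 15 and 13.6%. Chromosome 4 held 13 members, chromosome 1 held 12, chromosome 5 held 11 and chromosome 7 held 10. None of the 6 window genes on unplaced sequence was a member. Among the listed genes in ID order, 2 pairs of members were next to each other, Csa2G246520 with Csa2G246530 and Csa3G002670 with Csa3G002680. The 2309 genes of the window held 357 such pairs.

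The members can be ordered by how often they were chosen. All these choices drew on the same libraries, so a small CV by itself favours being kept. The order is therefore a description, and it is no test of the members as references in fruit of these lines at anthesis. Of the 100, 52 were chosen again with quantile, TMM and median-of-ratios scaling alike, and 28 under those 3 scalings and without each library in turn. Under every one of the 15 other choices tried, 13 members were kept. They included the first 9 members by CV, from Csa2G356630 to Csa3G829230, and Csa3G110620, the only one of the 13 above 400 RPM. Csa2G059750, the most abundant member, was kept without each library in turn but under 1 of the 3 scalings. Scaling all genes to the geometric mean of the 100 members gave 3513 genes that differed between the lines, and scaling to the 3 steadiest gave 3465, against 3517 with RPM. The genes higher in GFC among them numbered 1248, 1299 and 1431. The members' RPM was chosen to be nearly constant, so these scalings had to stay close to RPM, with factors of 0.994 to 1.015 for the 100 members, and their result is no support for the members as references. No other tissue, stage or cucumber line was measured here.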

How the data were processed

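Per the submitters' processing notes, the authors used TopHat and HTSeq; no version, build, annotation or filter was given in the sources used here. Library preparation used a directional Illumina kit, per the labels' protocols. The authors deposited RPM values for 17073 genes; each column summed to 1000000. All values were whole multiples of 1 read within 0.001 reads (100% in every library; the smallest value of 32X replicate 3 was 2 reads), so reads were recovered. The planned filter of 1 RPM in 3 libraries removed 0 genes. Lines were compared with limma (version 3.58.1, R 4.3.3), fitted to log2(RPM + 1) with a variance trend, two-sided, with Benjamini-Hochberg adjustment over all genes. edgeR 4.0.16 (quasi-likelihood) and DESeq2 1.42.0 (Wald) on recovered reads were alternatives, as were other pseudocounts, scalings, a filter, a replicate block and left-out libraries. Counting noise took a Poisson variance at each gene's pooled rate. Scripts were tested on simulated data. Genes were named by fixed ranks: smallest CV overall and per level band, both sides of the limit, lowest and highest mean, smallest and largest ratio of observed to counting variance, and smallest M. No member was called, so the part of the rule on called members named none. Members, lists and tests were chosen with earlier results of these data known. No sequence is shown, since the tables used here pair the IDs with none.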

Additional observations from a re-analysis of the deposited data

How the results depend on the processing

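The number of members differing between the lines was 0 in limma, edgeR and DESeq2 and under every pseudocount, filter, scaling and left-out library tried, which the choice of members fixed. Over all genes 3027 to 3986 differed under these settings with all 6 libraries, and 1346 to 4758 with 1 library left out. With the replicate number as a block 2066 differed and 0 members. Same-numbered deviations correlated at -0.04, -0.27 and -0.09, and 0 of 6 libraries were nearest to their own number. These values show no pairing by number, but with 3 libraries per line they cannot settle whether there was any. The cause of the lower count was not tested.

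Of the members, 67 to 74 were chosen again with quantile, TMM or median-of-ratios scaling, 98 by the SD of log2 RPM, 93 after subtracting counting noise and 99 with no upper limit on RPM. The median CVs given next to numbers kept are those of the 100 genes that each choice picked, members or not. The choice moved more with the mean of within-line CVs (44 kept, median CV 4.40%) and a window from 50 RPM (41 kept, 2.55%). It also moved with the pairwise ratio SD over the window (52 kept, 3.61%, chosen after seeing the data). The window from 50 RPM let 2761 more genes compete for the same 100 places. For the within-line CVs and the pairwise ratio SD the cause was not tested. Leaving out 1 library kept 51 to 87 members. The 100 genes chosen on the other 5 had median CVs of 2.40% to 3.12% over those 5, and CVs over fewer libraries reach smaller minima. With 1 library left out, genes steadiest in 32X had a median CV in GFC of 2.73% to 4.32%, genes steadiest in GFC had 4.33% to 8.34% in 32X, and the log2 ratio of line means of the former was 0.083 to 0.16. The held-out deviation was 0.069 to 0.078 with other scalings and with 50 or 200 genes. The left-out choices within a line and the line ratio were also added after seeing the data. At this depth counting alone gives the members a median CV of 2.02%. The spread of 48 of them lay under the 95% point of counting noise, a count that the choice of the smallest CVs favoured.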

Other observations

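Outside the window, smaller CVs occurred than any of the members'. Among the 2761 genes of 50 to under 100 RPM the smallest CV was 0.597%, where counting alone gives a median of 2.98% in that band. Among the 81 genes of at least 800 RPM the smallest was 3.33%, with a median of 16.0%. The median CV was lowest, at 9.42%, among the 1034 genes of 100 to under 150 RPM. It was 23.3% under 10 RPM, where counting alone gives 12.3%.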
